A study of Mus musculus with 6 samples.

Results

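The miR-17 cluster, which runs from miR-17 to miR-92a, and the miR-106b cluster, which runs from miR-106b to miR-25, are 2 groups of microRNAs (miRNAs, small RNAs that silence messenger RNAs), each group cut from a shared primary transcript. In mouse left ventricle, 10 of their mature miRNAs were followed. These were mmu-miR-17-5p, mmu-miR-17-3p, mmu-miR-18a-5p, mmu-miR-19a-3p, mmu-miR-20a-5p, mmu-miR-19b-3p and mmu-miR-92a-3p from the first cluster, and mmu-miR-106b-5p, mmu-miR-93-5p and mmu-miR-25-3p from the second (the mouse prefix is left out from here on). They were taken by name from the 1881 mouse miRNAs on the array, 7 from the first cluster and 3 from the second, without use of any measured value. The arrays compared left ventricles of male C57BL/6 mice given sunitinib, an inhibitor of receptor tyrosine kinases used against cancer, with those of male C57BL/6 mice given vehicle, with 3 samples in each group. From each sample, 200 ng of total RNA was labelled with Cy3 and hybridised to its own array. Sources used here do not give the dose or duration of sunitinib or the age of the mice. Whether every sample is a separate animal is not stated either. The p-values thus set group differences against a spread between samples, part of which may be technical. Values are given for replicates 1, 2 and 3 of a group, in that order.

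The primary transcript of the miR-17 cluster, Mir17hg, is known as a target of the transcription factor Myc, and its miRNAs promote proliferation and survival of cells. The miR-106b cluster lies within Mcm7, a gene for a subunit of the helicase that opens DNA for replication, and is transcribed with it. A miRNA finds its targets mainly through its seed, bases 2 to 8 from its 5′ end, so miRNAs of both clusters that share a seed share many targets. In the heart, the miR-17 cluster is known for its part in cardiomyocyte proliferation, and miR-92a as a brake on the growth of blood vessels. A further cluster on the X chromosome, named here for its first member miR-106a, carries close relatives and second copies of miR-19b and miR-92a.

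The mature sequences are shown because the seeds define the families compared below, and because differences of a few bases decide which miRNA a probe can tell apart. They were taken from RefSeq (GRCm38.p6), which held all 10 members, and are written 5′ to 3′ with the seed in capitals. The seed AAAGUGC is carried by 4 members.
miR-17-5p: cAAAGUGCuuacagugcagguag
miR-20a-5p: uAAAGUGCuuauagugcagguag
miR-106b-5p: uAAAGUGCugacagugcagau
miR-93-5p: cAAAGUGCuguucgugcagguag
The seed of miR-18a-5p, AAGGUGC, differs from these and stands alone among the members.
miR-18a-5p: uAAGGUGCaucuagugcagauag
The pair with the seed GUGCAAA differs at a single base outside it, U11C from miR-19a-3p to miR-19b-3p, with positions counted from 1 at the 5′ end.
miR-19a-3p: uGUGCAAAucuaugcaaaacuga
miR-19b-3p: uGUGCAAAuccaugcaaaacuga
The seed AUUGCAC joins a miRNA of each cluster. From miR-25-3p to miR-92a-3p the substitutions are C1U, U14C and U18C, and miR-25-3p has an additional base at its 3′ end.
miR-92a-3p: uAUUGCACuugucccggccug
miR-25-3p: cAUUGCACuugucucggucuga
The remaining member is the other arm of the miR-17 hairpin.
miR-17-3p: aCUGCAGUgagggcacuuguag

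The hairpin of Mir17 is shown with both arms in capitals, since its arms were detected differently.
Mir17: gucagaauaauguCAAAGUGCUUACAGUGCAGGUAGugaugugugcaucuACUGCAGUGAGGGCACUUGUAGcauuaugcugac
The first arm is miR-17-5p and the second is miR-17-3p.

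Of the 10 members, 8 were detected well enough to be tested, 5 of the miR-17 cluster and 3 of the miR-106b cluster, and 0 of them passed the test between sunitinib and control. A spot counted as well above background by the scanner software's own call, a probe did so on an array when at least 50% of its spots did, and a miRNA was tested when its brightest probe did so on every array of either group. This held for 237 of the 1881 miRNAs, and the 8 members met it on all 6 arrays. The groups were compared by limma on log2 scaled signal (spot intensity after the arrays were aligned on their bright probes), with p-values adjusted by Benjamini-Hochberg over the 237 miRNAs and a threshold of 0.05. At that threshold 3.38% of tested miRNAs were called, 4 higher (1.69%) and 4 lower (1.69%) in sunitinib, against 0 of 8 members. At an unadjusted p under 0.05, 2 members were higher, miR-92a-3p and miR-25-3p, and 0 lower, beside 10.5% of tested miRNAs higher and 8.44% lower. The groups did not overlap for 3 of the 8 members, beside 27.4% of all tested miRNAs. Of these, 2 members were higher in sunitinib, beside 18.1% of all tested miRNAs, and 1 was lower, beside 9.28%. The members' median log2 change was 0.018, with a range from -0.10 to 0.30, and the median of all tested miRNAs was 0.019. Tissue RNA is a mixture, so fewer cells of a type and less RNA per cell cannot be told apart in any of these values.

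**Figure D1:**
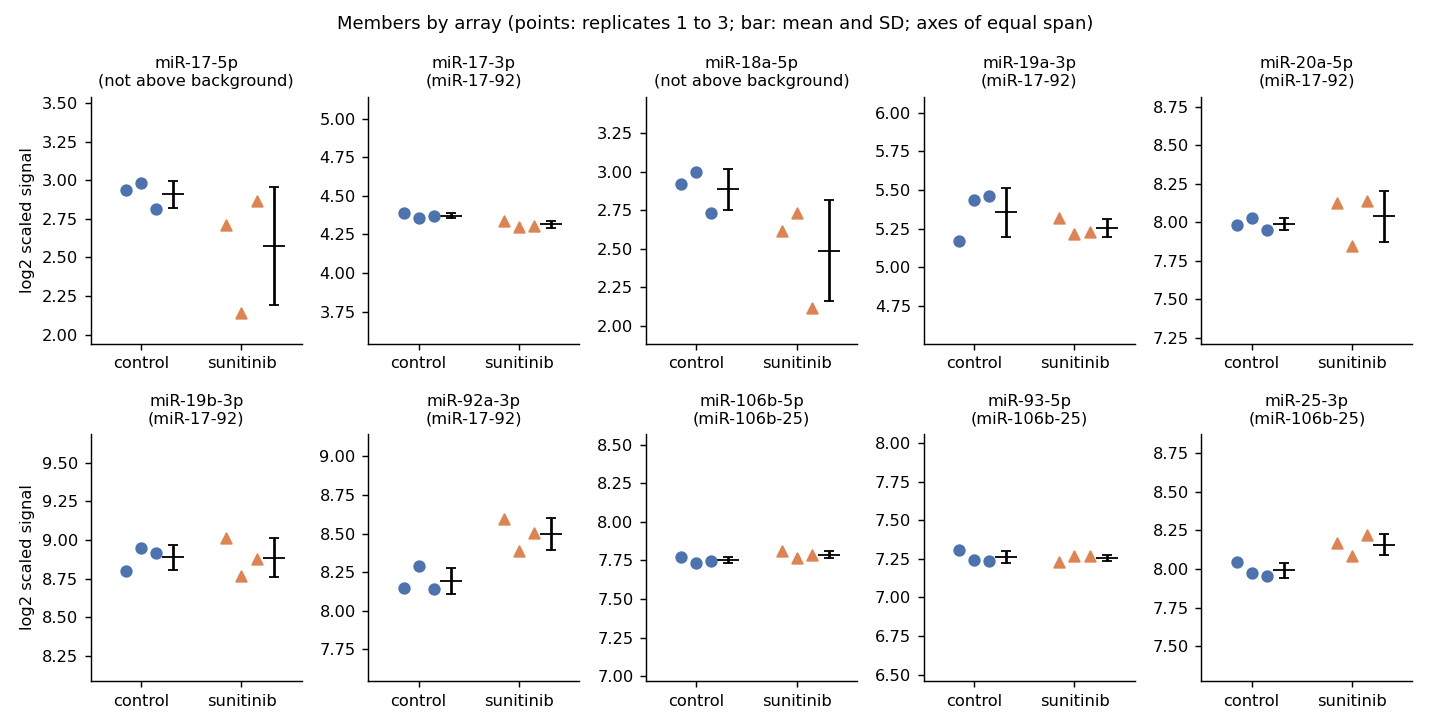
Log2 scaled signal of the brightest probe of each of the 10 members (y axis; all panels span the same number of log2 units but start at different levels) in control and sunitinib arrays (x axis). Panel titles name the cluster by its first and last miRNA. Points are replicates 1 to 3 from left to right, and bars are the group mean and SD. The groups do not overlap for miR-92a-3p and miR-25-3p (higher in sunitinib) or for miR-17-3p and miR-18a-5p (lower), and miR-17-5p and miR-18a-5p were not well above background on any array.

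miR-17-5p, the first miRNA of its cluster and a known repressor of cell cycle and apoptosis genes, was not well above background on any of the 6 arrays. Its log2 scaled signal was 2.94, 2.98 and 2.81 in control, and 2.71, 2.14 and 2.87 in sunitinib. The groups overlapped, and sunitinib replicate 2 was the lowest array. Only 2 of its 88 usable spots over the 6 arrays exceeded background, so these values lie at the detection limit and no fold change is given. Its probes are short, 13 and 12 bases, and both match miR-17-5p and the X-linked miR-106a-5p exactly, since the miRNAs differ only at U10A, outside the bases the probes pair with. The brighter probe is shown with its full sequence, and the relative is shown with its seed in capitals.
miR-17-5p probe: CTACCTGCACTGT
miR-106a-5p: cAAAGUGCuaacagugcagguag
This probe maps, per the files (build mm9), to chr14:115442916-115442928 on the plus strand and to chrX:50095694-50095706 on the minus strand. The dim signal is therefore that of a 13-base probe that cannot separate the pair.

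miR-17-3p, the opposite arm of the same hairpin and usually the less abundant one, was above background on all 6 arrays. Its brightest probe maps to chr14:115442951-115442964 (mm9, plus strand). Log2 scaled signal was 4.39, 4.36 and 4.37 in control, and 4.34, 4.30 and 4.31 in sunitinib. Every sunitinib array lay just below every control array. The group means were 4.37 ± 0.017 and 4.32 ± 0.021 (SD, n = 3 each), a difference of -0.06 on the log2 scale with an SE of 0.054 and an adjusted p of 0.632 by limma, and the 95% interval of the ratio ran from 0.879 to 1.05-fold. The SE exceeds the spread of these 6 values because limma moderates each variance towards that of all tested miRNAs. A second probe for miR-17-3p, with 14 bases, was not above background on any array, and where the mean of both probes was used the log2 change became -0.29 (adjusted p = 0.160).

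miR-18a-5p, known to repress Ctgf, a matrix-associated growth factor, was likewise not well above background on any array. Log2 scaled signal was 2.92, 3.00 and 2.74 in control, and 2.61, 2.73 and 2.12 in sunitinib. The groups did not overlap, by 2.735 in control replicate 3 against 2.733 in sunitinib replicate 2, and 4 of 87 usable spots exceeded background. Both groups were dim, so no fold change is given. Its probe maps to chr14:115443094-115443111 (mm9, plus strand) and matches no other listed miRNA exactly. Between spots of the same probe on an array, the median SD was 0.51 for miR-17-5p and 0.53 for miR-18a-5p on the log2 scale, against 0.07 to 0.22 for the brightest probes of the tested members.

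miR-19a-3p and miR-19b-3p, known as the main oncogenic miRNAs of the cluster, were both detected on all arrays, and neither passed the test. miR-19a-3p (probe at chr14:115443273-115443292, mm9, plus strand) read 5.17, 5.44 and 5.46 (log2 scaled signal) in control, and 5.32, 5.22 and 5.23 in sunitinib. The sunitinib arrays lay within the range of the control arrays. Its log2 change was -0.10 with an SE of 0.094 and an adjusted p of 0.629 by limma, and the 95% interval of the ratio ran from 0.796 to 1.09-fold.

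miR-19b-3p has identical copies on chromosome 14 and on the X chromosome, and its probe maps to chr14:115443583-115443602 and chrX:50095216-50095235 (mm9), so the signal is the sum of both. Log2 scaled signal was 8.80, 8.95 and 8.91 in control, and 9.01, 8.76 and 8.88 in sunitinib. The groups overlapped fully, with the highest and the lowest array both in the sunitinib group. The means were 8.89 ± 0.080 and 8.89 ± 0.12 (SD, n = 3 each), and the 95% interval of the ratio was 0.865 to 1.15-fold (limma adjusted p = 0.996). The probes of the 2 miRNAs differ in the base shown in capitals.
miR-19a-3p probe: tcagttttgcatAgatttgca
miR-19b-3p probe: tcagttttgcatGgatttgc
How far each probe also captures the other miRNA was not tested.

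miR-20a-5p, which shares its seed with miR-17-5p and is known to repress E2f1, a driver of the cell cycle, was the member of that family in the miR-17 cluster that could be tested. Its probe maps to chr14:115443410-115443427 (mm9, plus strand). Log2 scaled signal was 7.98, 8.03 and 7.95 in control, and 8.13, 7.85 and 8.14 in sunitinib. Sunitinib replicates 1 and 3 were above every control array and replicate 2 was below every control array. The log2 change was 0.05 with an SE of 0.094 and an adjusted p of 0.815 by limma, and the 95% interval of the ratio ran from 0.884 to 1.21-fold.

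miR-92a-3p, the last miRNA of the cluster and a known repressor of the integrin gene Itga5 in endothelium, was the member with the highest log2 change. Its brightest probe maps to chr14:115443702-115443718 (plus strand) and chrX:50095073-50095089 (minus strand) in mm9, so it too reads the sum of identical copies. Log2 scaled signal was 8.15, 8.29 and 8.14 in control, and 8.60, 8.39 and 8.51 in sunitinib. Every sunitinib array was above every control array. The means were 8.19 ± 0.084 and 8.50 ± 0.10 (SD, n = 3 each), a 1.23-fold ratio with a 95% interval from 1.08 to 1.41 (log2 change 0.30, SE 0.081). With an unadjusted limma p of 0.0085 and an adjusted p of 0.114, miR-92a-3p did not pass the threshold. Of the 237 tested miRNAs, 14 had a higher change. Without sunitinib replicate 2 the change was 0.39 and passed the threshold (limma adjusted p = 0.049), and it did not when the scaling of all 6 arrays was kept (0.36, adjusted p = 0.0557).

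By their brightest probes, the 3 members of the miR-106b cluster varied little between arrays of a group, with SDs from 0.019 to 0.070. This was not particular to the cluster, since miR-17-3p had SDs of 0.017 and 0.021. The second probe of miR-25-3p varied more, with an SD of 0.17 in sunitinib. miR-106b-5p, a repressor of the cell cycle inhibitor Cdkn1a (probe at chr5:138606981-138606996, mm9, minus strand), read 7.77, 7.73 and 7.75 (log2 scaled signal) in control, and 7.81, 7.77 and 7.78 in sunitinib. The groups overlapped, with all 6 arrays close together. Its log2 change was 0.04 with an SE of 0.054 and an adjusted p of 0.741 by limma, and the 95% interval of the ratio was 0.937 to 1.12-fold.

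miR-93-5p, with the same seed (probe at chr5:138606773-138606787, mm9, minus strand), read 7.31, 7.24 and 7.23 (log2 scaled signal) in control, and 7.23, 7.27 and 7.27 in sunitinib. Both means were 7.26, with SDs of 0.041 in control and 0.021 in sunitinib (n = 3 each). The sunitinib arrays lay inside the control range or just below it. The 95% interval of the ratio was 0.905 to 1.09-fold (limma adjusted p = 0.964).

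miR-25-3p, known in cardiac muscle as a repressor of the calcium pump gene Atp2a2 (probe at chr5:138606605-138606621, mm9, minus strand), had the highest log2 change of its cluster. Log2 scaled signal was 8.05, 7.97 and 7.96 in control, and 8.17, 8.08 and 8.22 in sunitinib. Every sunitinib array was above every control array. The ratio was 1.12-fold with a 95% interval from 1.01 to 1.25 (log2 change 0.17, SE 0.065), with an unadjusted limma p of 0.0426 and an adjusted p of 0.246. Of the 237 tested miRNAs, 40 had a higher change.

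**Figure D2:**
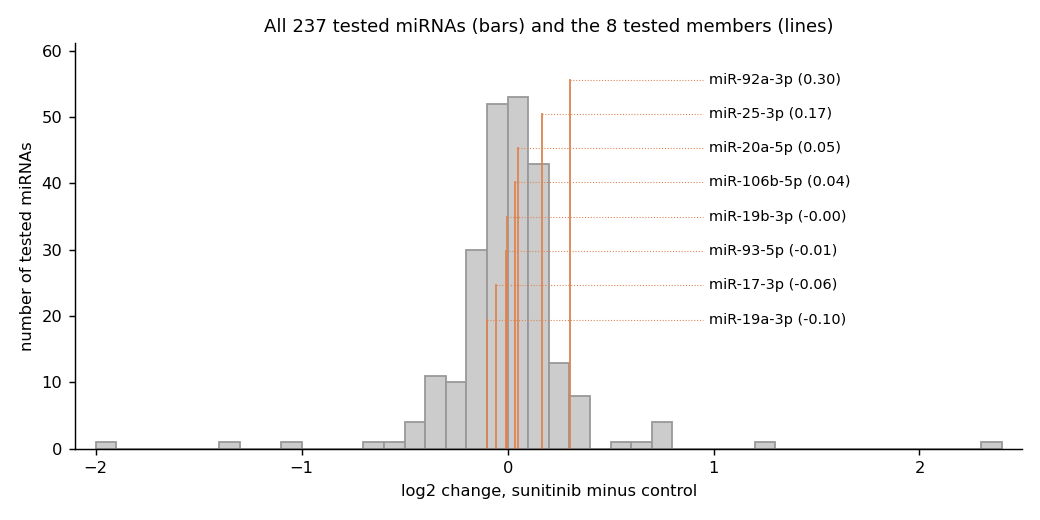
Number of tested miRNAs (y axis) by log2 change, sunitinib minus control (x axis). Grey bars are all 237 tested miRNAs and coloured lines mark the 8 tested members with their change. The members run from -0.10 to 0.30, and all but miR-92a-3p and miR-25-3p lie between -0.10 and 0.05.

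Each member has a second, dimmer probe on the array, which gives another reading of the same samples. For miR-92a-3p, the second probe read 6.25, 6.20 and 6.21 in control, and 6.44, 6.28 and 6.41 in sunitinib. These groups did not overlap either, and the log2 change was 0.16 (limma adjusted p = 0.276, over the 177 miRNAs whose second probe could be tested). For miR-25-3p, the second probe read 6.33, 6.17 and 6.19 in control and 6.25, 6.07 and 6.41 in sunitinib, with a log2 change of 0.01 (limma adjusted p = 0.953). Its groups overlapped, so the separation seen with the brightest probe of miR-25-3p was not present in the second. The second probes of miR-19a-3p and miR-19b-3p both gave -0.12, that of miR-20a-5p 0.05, that of miR-106b-5p -0.09 and that of miR-93-5p -0.05 as the log2 change. The sign for miR-106b-5p thus differed between its probes, and no second probe passed the threshold.

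**Figure D3:**
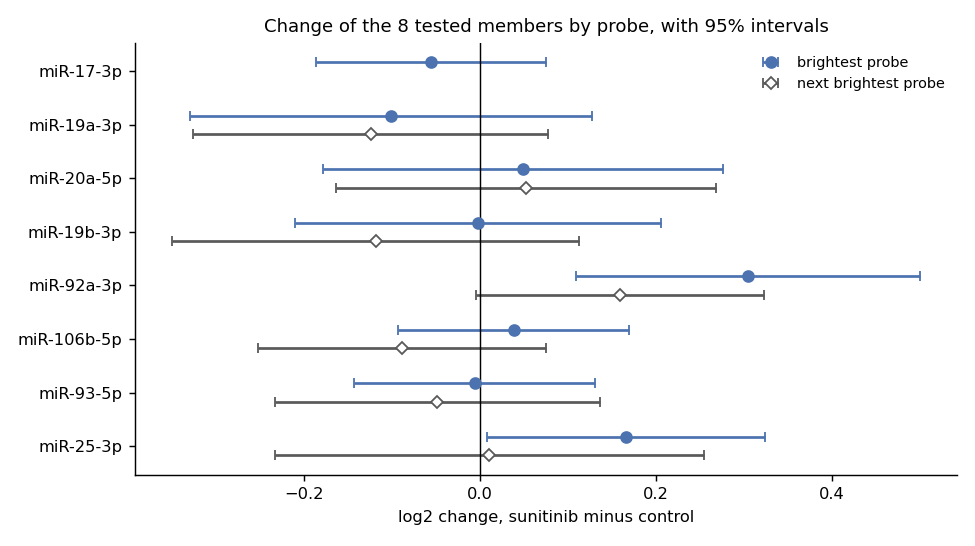
Log2 change, sunitinib minus control (x axis), of the 8 tested members (y axis) by their brightest probe (filled circles) and next brightest probe (open diamonds), with 95% intervals from limma. For miR-92a-3p both probes lie above 0 (0.30 and 0.16), and for miR-25-3p the second lies at 0.01. miR-17-3p has no second probe above background.

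Grouped by seed, the members that share AUUGCAC, miR-92a-3p and miR-25-3p, had log2 changes of 0.30 and 0.17. The 3 tested members with AAAGUGC (miR-20a-5p, miR-106b-5p and miR-93-5p) ranged from -0.0063 to 0.05, and the GUGCAAA pair from -0.10 to -0.0020. These are values of the brightest probes. With the second probes miR-92a-3p had 0.16 and miR-25-3p 0.01. The latter then lay within the range of the AAAGUGC members, -0.09 to 0.05, and the GUGCAAA pair had -0.12 each. The seed groups hold 2 or 3 members each and the probes of miR-92a-3p and miR-25-3p were designed for related sequences. The brightest probe of miR-92a-3p has 2 mismatches to miR-25-3p, and cross-hybridisation between them was not tested. The other miRNAs on the array that carry the seed AUUGCAC, 4 in all, were above background on no array.

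Within the miR-17 cluster, miR-92a-3p was set against the other tested members array by array, which removes any scaling shared by an array. Each value below is the log2 difference between the 2 probes on an array, less its mean over the control arrays, so that levels of different probes are not compared. Against miR-19b-3p, these values were 0.04, 0.03 and -0.08 in control, and 0.28, 0.32 and 0.32 in sunitinib. Every sunitinib array was above every control array, and the difference of change was 0.31. Against miR-20a-5p, the values were -0.04, 0.06 and -0.02 in control and 0.27, 0.34 and 0.16 in sunitinib, a difference of 0.26. Against miR-19a-3p, they were 0.14, 0.02 and -0.16 in control and 0.44, 0.34 and 0.44 in sunitinib, a difference of 0.41. The groups stood apart for each of these, and also against miR-17-3p, where the difference was 0.36.

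Within the miR-106b cluster, miR-25-3p was compared in the same way. Against miR-93-5p, the values were 0.0071, 0.0002 and -0.0073 in control, and 0.20, 0.09 and 0.225 in sunitinib. Against miR-106b-5p, they were 0.03, -0.0013 and -0.03 in control and 0.11, 0.08 and 0.20 in sunitinib. The groups did not overlap for either, with differences of change of 0.17 and 0.13. An exact two-sided permutation test gave p = 0.1 for each of the 6 pairs of both clusters (Benjamini-Hochberg adjusted p = 0.1), which is the smallest p that 3 against 3 samples allow, so no pair could pass 0.05. The 6 pairs share probes and were chosen with earlier results of these data known. Each sets the member with the highest log2 change of its cluster against another, so the direction follows from that choice. How often pairs of other tested miRNAs separate was not tested. With the next brightest probes the differences kept their sign and were smaller. For miR-92a-3p they were 0.28 against miR-19a-3p, 0.28 against miR-19b-3p and 0.11 against miR-20a-5p, and the groups stayed apart. For miR-25-3p they were 0.099 against miR-106b-5p and 0.059 against miR-93-5p, and the groups overlapped in each, so their separation was not present with the second probes.

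**Figure D4:**
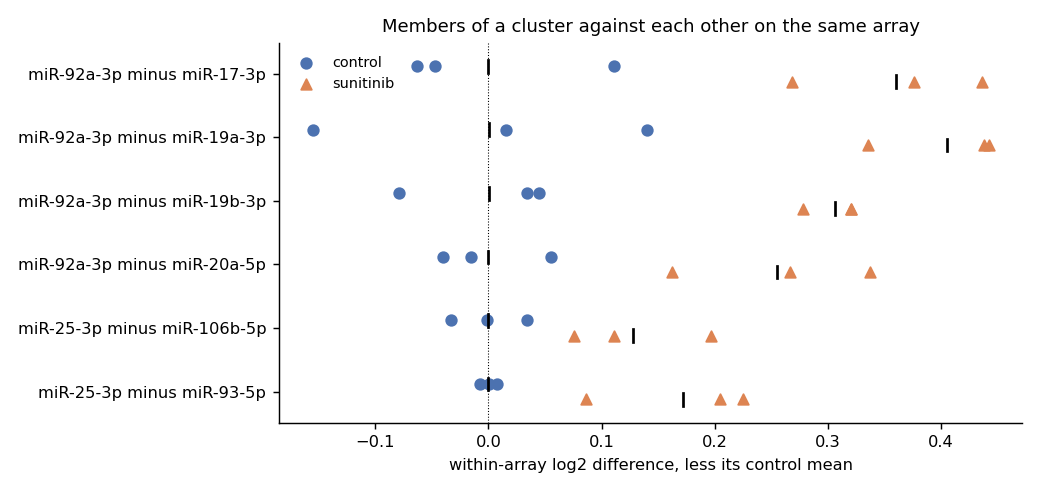
Log2 difference within an array between 2 members of a cluster, less its control mean (x axis), for the 6 pairs (y axis) in control and sunitinib arrays. Points are single arrays and short bars are group means. Each pair sets the member with the highest log2 change of its cluster against another member, so an upward difference follows from that choice. The 3 sunitinib arrays lie above the 3 control arrays in each pair, with differences of change from 0.13 to 0.41. How often pairs of other tested miRNAs separate was not tested.

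All 3 control arrays lay in the second row of the slide, as did sunitinib replicate 3, whereas sunitinib replicates 1 and 2 lay in the first row. Within the second row, sunitinib replicate 3 minus the control mean was 0.31 for miR-92a-3p and 0.23 for miR-25-3p on the log2 scale, beside 0.30 and 0.17 over all arrays. It was 0.15 for miR-20a-5p, -0.13 for miR-19a-3p, -0.0084 for miR-19b-3p, -0.06 for miR-17-3p, 0.03 for miR-106b-5p and 0.0059 for miR-93-5p. These within-row values rest on 1 sunitinib array. With the slide row as a block in limma, the log2 changes were the same, 0.31 for miR-92a-3p and 0.23 for miR-25-3p. That fit is not a second reading. The first row held no control array, so its group difference also rests on sunitinib replicate 3 alone.

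The relatives of the clusters were mostly dim. The opposite arms of the remaining hairpins (8 miRNAs on the array, such as miR-18a-3p, miR-93-3p and miR-25-5p) were above background on 0 arrays. Of the 9 miRNAs of the miR-106a cluster with a listing of their own on the array, 8 were above background on no array and 1 was tested, miR-20b-5p, which has the seed of miR-17-5p. miR-20b-5p is separated from miR-20a-5p by U1C and U10C (miR-20a-5p first).
miR-20b-5p: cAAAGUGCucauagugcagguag
Its log2 scaled signal was 7.00, 7.07 and 6.98 in control, and 7.13, 6.94 and 7.19 in sunitinib. As with miR-20a-5p, sunitinib replicates 1 and 3 were above every control array and replicate 2 was below them, and the log2 change was 0.07. The probes of the pair differ at the base in capitals, and cross-hybridisation was not tested.
miR-20a-5p probe: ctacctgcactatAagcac
miR-20b-5p probe: ctacctgcactatGagcact

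Among the 237 tested miRNAs, those with the pattern most like miR-92a-3p over the 6 arrays were miR-29a-3p, miR-30b-3p and miR-193b-3p. Likeness was the root mean square difference of log2 values, each centred on its own mean, and was 0.035, 0.044 and 0.046 for these, against a median of 0.212 over all tested miRNAs. For miR-25-3p they were miR-30c-5p (0.041), miR-30e-3p (0.055) and miR-99a-5p (0.059), against a median of 0.153. None of the 6 is a member of either cluster. The log2 changes of the first 3 were 0.26 each, near that of miR-92a-3p, and those of the latter 3 were 0.15, 0.14 and 0.09. Likeness was taken over the arrays of both groups, so similar changes follow from how these miRNAs were picked.

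The tissue label was checked against marker miRNAs. All 5 cardiac muscle markers (such as miR-1a-3p and miR-208a-3p) were tested with 0 called, while the markers of liver, brain and epithelium (5 miRNAs) were above background on no array. Of 5 leukocyte markers, 4 were tested and 2 fell in sunitinib, miR-223-3p by 1.32 and miR-142a-3p by 0.64 on the log2 scale (limma adjusted p = 0.00086 and 0.02), while miR-142a-5p was above background on no array. The other 2 tested leukocyte markers had log2 changes above 0 and did not pass the threshold, miR-150-5p with 0.35 and miR-155-5p with 0.15 (limma adjusted p = 0.359 and 0.246), and the groups of miR-155-5p did not overlap. The summed scaled signal of the list was 638 to 708 in control and 426 to 504 in sunitinib arrays. Its tested members thus did not share a direction, and the lower sum lay mainly with miR-223-3p and miR-142a-3p. The erythroid (4 tested), endothelial (2) and mural (2) markers had 0 called, with summed scaled signals of 3456 to 4993, 9859 to 10822 and 648 to 730 in control and of 4518 to 4773, 9880 to 10348 and 625 to 651 in sunitinib. The part of these differences in the members' values was not tested. The arrays were alike in detection, with 237 to 252 miRNAs well above background in control and 234 to 242 in sunitinib, and sunitinib replicate 2 was the lowest array for 3 of the 8 tested members and the highest for 0.

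**Figure D5:**
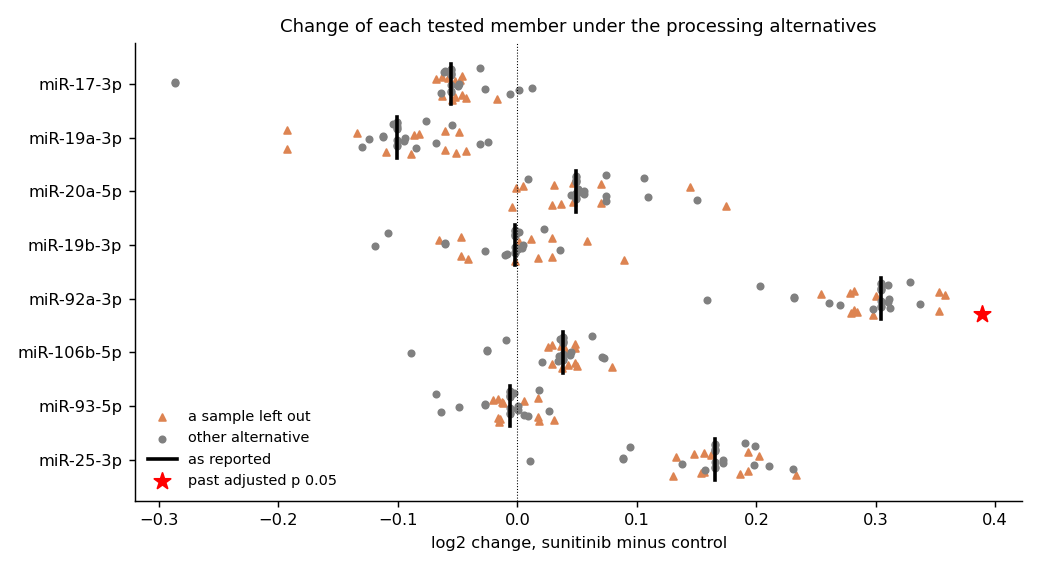
Log2 change, sunitinib minus control (x axis), of the 8 tested members (y axis) under each alternative of processing. Black bars are the values reported, triangles are fits with a sample left out, circles are other alternatives, and the star marks adjusted p under 0.05. miR-92a-3p (0.16 to 0.39) and miR-25-3p (0.011 to 0.23) lie above 0 throughout, miR-19a-3p (-0.19 to -0.024) lies below 0, and the other 5 members take both signs.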

How the data were processed

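Groups were read from the sample titles. The scanner files deposited by the authors hold linear spot intensity, background-subtracted by Agilent Feature Extraction, version 10.7 per the submitters' processing notes and 10.7.1.1 per the file headers, which also name mm9. The deposited value table, used only as an alternative, holds log2 values from the authors, with scale and centring not stated in the sources used here.

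Control spots and outlier spots (1572 to 1727 per array) were dropped, and 0 spots were saturated. Of 56430 spots and 4415 probes, 393 probes that were well above background on each of the 6 arrays set the scaling, by the 75th percentile of log2 signal. After a floor of 1, log2 values were averaged over spots, and the brightest probe stood for its miRNA. The groups were compared by limma 3.58.1 (lmFit, eBayes) in R 4.3.3, fitted on all 237 tested miRNAs. The scripts were tested on simulated data. The named miRNAs are the members, the detected relatives, the 3 miRNAs most like miR-92a-3p and miR-25-3p (miR-17-5p, not tested, had none), and markers where a result needed them. The members were taken by name and not by their values, though earlier results of these data were known. The lists were also chosen with those results known. Alternatives covered background correction, scaling, floor, probe summary, filters, variance model, weights, blocks and samples left out, 26 planned and 7 chosen after seeing the data. All arrays lay on 1 slide, and their number limits the precision.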

Additional observations from a re-analysis of the deposited data

How the results depend on the processing

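Under 33 alternatives, 0 members were called lower in each, and 0 were called higher in each except without sunitinib replicate 2, where 1 was (miR-92a-3p, so the range with a sample left out was 0 to 1). miR-92a-3p (adjusted p from 0.049 to 0.653), miR-25-3p (0.110 to 0.953) and miR-19a-3p (0.361 to 0.999) kept their direction throughout, and the value table gave 0.20 for miR-92a-3p (adjusted p = 0.221). The alternative floors, filters and variance models and the replicate block left the log2 changes of these members as they were. Those alternatives are thus no check on direction. The near-zero members changed sign. For miR-19b-3p the log2 change was 0.000399 after normexp, 0.0227 under the all-probe percentile, 0.00477 under median scaling, 0.00424 without scaling, 0.0354 with outlier spots kept and 0.00177 with array weights, and -0.066 to 0.090 with a sample left out. For miR-93-5p it was 0.000459 after normexp, 0.0184 under the all-probe percentile, 0.000437 under median scaling, 0.00851 with summed signal, 0.0262 with outlier spots kept and 0.00593 with the slide row block, and -0.020 to 0.030 with a sample left out. For miR-106b-5p it was -0.0253 with the mean or the median of the probes, -0.00964 in the value table and -0.0886 with the next brightest probe. For miR-17-3p it was 0.0122 with normexp and 0.00158 with quantile normalization, and for miR-20a-5p -0.0044 to 0.175 with a sample left out. The cause was not tested. The 6 pair differences kept their sign under the 27 or 28 alternatives run for them, but their direction followed from the choice of pairs. Alternatives that only rescale whole arrays cannot alter a difference within an array. That of miR-92a-3p against miR-17-3p stayed at 0.36 under the all-probe percentile, under median scaling and without scaling. Over all alternatives, calls among all tested miRNAs ranged from 0 to 12 higher and from 1 to 7 lower, and went from 4 higher and 4 lower to 12 and 5 without sunitinib replicate 2 (2 and 3 with the scaling of all 6 arrays kept) and to 0 and 2 without any single control replicate. The titles do not say that replicate numbers pair samples, so they were not taken to do so. Deviations of same-numbered samples correlated at 0.176, 0.217 and -0.055, and those of differently numbered samples at -0.306 to 0.250, which does not settle it. With the replicate block 0 members and 2 of all miRNAs were called, and miR-92a-3p had an adjusted p of 0.267. With 3 arrays a group, signal over background limits miR-17-5p and miR-18a-5p, for which differences were not detectable.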

Other observations

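The scanner software also writes a summed signal per miRNA over its probes, a linear value before the scaling used above. For miR-17-5p it was 618, 558 and 0.692 in control, and 583, 0.799 and 0.754 in sunitinib, for replicates 1, 2 and 3 of a group. It was thus under 1 on 3 of the 6 arrays, in both groups. For miR-17-3p, from the same hairpin, the summed signal was 616, 556 and 449 in control and 582, 443 and 570 in sunitinib. These sums do not rank miRNAs as their probes do. For miR-19b-3p they were 144, 149 and 123 in control and 166, 112 and 134 in sunitinib. Its brightest probe had a control mean of 8.89 in log2 scaled signal, against 4.37 for miR-17-3p. The sums are thus not read as abundance, and the cause was not tested. For miR-18a-5p it was 14.8, 12.8 and 0.697 in control and 0.749, 0.805 and 0.747 in sunitinib, under 1 on 4 arrays. The spots behind these values were above background in 2 of 88 cases for the brighter probe of miR-17-5p and 4 of 87 for that of miR-18a-5p.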
